A study of Arabidopsis thaliana with 7 samples.

Results

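The genes described are those whose deposited descriptions name a plant hormone and that were listed after FAIRE-seq of *Arabidopsis thaliana* *msh1* memory plants. FAIRE (formaldehyde-assisted isolation of regulatory elements) recovers the DNA that carries little protein in crosslinked chromatin, and its reads pile up where chromatin is open. A gene was taken when the first part of its deposited description named 1 of 8 hormones (auxin, ethylene, gibberellin, abscisic acid, cytokinin, jasmonate, brassinosteroid or strigolactone), and *ARF6*, *ARF8* and *GH3.1* were added by name. This gave 24 genes of the 2600 that were in at least 1 list, out of 27444 annotated nuclear protein-coding genes. The description words alone took 23 of the 24. By the hormone named, 11 were auxin genes, 11 were ethylene genes, 1 was an abscisic acid gene (*ABF3*) and 1 was a cytokinin gene (*LOG6*). The descriptions of listed genes named gibberellin, jasmonate, brassinosteroid and strigolactone 0 times.

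Crosslinked libraries were made from whole rosettes of 3 *msh1* memory line plants (replicates 1, 2 and 3) and 2 wild type plants (replicates 2 and 3). All were of the Columbia-0 background and had been germinated in MS media, then kept for 14 days at 24 °C under 12 h of light and 12 h of darkness. *MSH1* encodes a plant protein that guards the genomes of plastids and mitochondria, and memory lines are transgene-free descendants of plants in which it was silenced. The labels give no further allele and no account of how the memory plants were related. A decrossed pool of 3 plants per genotype was not analysed here.

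Each of the 6 deposited gene lists set 1 memory plant against 1 wild type control, coded C2 or C3, and named the genes with a peak within 2 kb upstream or downstream. Which wild type replicate is C2 and which is C3 is not given in the labels. The value of a gene in a list is presence or absence, with no peak height, position or direction of difference. A listing is therefore not read here as more or less open chromatin in the memory plant. The depth is unknown, and the lists hold nothing by which to check the tissue. Every list rests on 1 library against 1 library, and the 3 lists against one control share that control's library, so no test was possible and counts are given beside those over all genes. Memory plants and wild type controls are labelled as separate biological replicates.

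Auxin acts by joining a TIR1/AFB receptor to an Aux/IAA repressor, which is then degraded and frees the auxin response factors (ARFs) that the repressor had held. Ethylene works the other way round, since its receptors are active without the hormone, and binding of ethylene lets the EIN3 and EIL factors accumulate and switch on genes of the ethylene response factor (ERF) family. In rosettes both hormones govern leaf expansion, and ERF genes also serve stress and defence programmes, while abscisic acid acts in drought and cytokinin in cell division and greening.

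The DNA just before the gene start is printed for 5 genes of auxin and ethylene signalling. *ARF8* and *IAA8* are shown as the 2 genes in all 6 lists. *ARF6*, a close relative of *ARF8*, is shown for its listing against C2 alone, which *ERF022* and *ERF020* shared. *EIL1* and *IAA1* are examples of genes in the 3 lists against C2 and 1 list against C3, as *NPH4* and *ERF094* were too. Each stretch holds the 250 bases before the start of the RefSeq gene in TAIR10.1, 5′ to 3′ on the strand of the gene. They lie at chr5:14629203-14629452 (plus strand), chr2:9636096-9636345 (plus), chr1:10690989-10691238 (minus), chr2:11545406-11545655 (plus) and chr4:8360746-8360995 (plus). Capitals mark matches, on either strand, to 8 hormone response motifs that are named below the sequences.
ARF8: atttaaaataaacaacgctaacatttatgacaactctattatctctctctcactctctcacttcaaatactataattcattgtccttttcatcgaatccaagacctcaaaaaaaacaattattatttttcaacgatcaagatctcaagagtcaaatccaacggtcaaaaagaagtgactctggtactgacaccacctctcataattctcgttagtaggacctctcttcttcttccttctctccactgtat
IAA8: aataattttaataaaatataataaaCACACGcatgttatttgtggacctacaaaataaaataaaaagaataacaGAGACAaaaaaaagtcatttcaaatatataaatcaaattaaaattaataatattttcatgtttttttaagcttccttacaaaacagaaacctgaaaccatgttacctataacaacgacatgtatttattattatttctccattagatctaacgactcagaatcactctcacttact
ARF6: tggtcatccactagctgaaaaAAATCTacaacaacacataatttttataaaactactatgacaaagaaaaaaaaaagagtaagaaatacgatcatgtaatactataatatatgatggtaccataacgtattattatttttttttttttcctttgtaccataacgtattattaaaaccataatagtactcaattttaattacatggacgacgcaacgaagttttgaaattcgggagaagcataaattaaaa
EIL1: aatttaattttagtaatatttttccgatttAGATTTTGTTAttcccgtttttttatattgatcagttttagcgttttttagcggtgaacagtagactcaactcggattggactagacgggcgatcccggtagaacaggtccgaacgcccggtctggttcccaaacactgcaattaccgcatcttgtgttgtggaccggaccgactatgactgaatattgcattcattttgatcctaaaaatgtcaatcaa
IAA1: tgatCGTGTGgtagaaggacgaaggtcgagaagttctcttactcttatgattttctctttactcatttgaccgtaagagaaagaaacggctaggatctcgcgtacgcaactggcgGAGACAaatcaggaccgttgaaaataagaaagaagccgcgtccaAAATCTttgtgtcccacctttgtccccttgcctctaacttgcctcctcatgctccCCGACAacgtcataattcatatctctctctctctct

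The motifs searched were the auxin response element TGTCTC, its variant of highest ARF affinity TGTCGG, the GCC box GCCGCC bound by ERF proteins, the abscisic acid response element ACGTGNC, the G-box CACGTG, the brassinosteroid response element CGTGNG, the core AGATTT bound by type-B cytokinin response regulators, and the gibberellin response core TAACAAA. The G-box, ACGTGNC and CGTGNG can overlap one another. In *IAA8* the capitals are CACACG (the brassinosteroid element on the other strand) and GAGACA (the auxin element on the other strand), 171 to 176 bases before the start. The *IAA1* stretch held 4 of the 8 motifs. Its auxin element GAGACA lay 130 to 135 bases and its high-affinity variant CCGACA 31 to 36 bases before the start. The *EIL1* stretch held AGATTT overlapping the gibberellin core, and that of *ARF6* held the type-B core on the other strand. In *ARF8* none of the 8 strings was found in the window.

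Over the 24 genes, TGTCGG was found before 3 (12.5%), against 4.16% of all 27443 promoters of that length. CGTGNG was found before 6 (25.0%), against 12.5% of all promoters. TGTCTC was found before 3 (12.5%, against 10.9%), ACGTGNC before 3 (12.5%, against 8.57%), the G-box before 3 (12.5%, against 6.49%) and the GCC box before 1 (4.17%, against 1.87%). For AGATTT the count was 8 (33.3%, against 34.4%) and for TAACAAA it was 2 (8.33%, against 16.1%). In the 43 listed genes of the hormone pathway list described further on, the shares were 4.65% for TGTCGG (2 genes), 0% for the GCC box and 18.6% for CGTGNG (8 genes), and over all 2600 listed genes they were 5.35%, 1.58% and 14.8%. TGTCTC was found before 18.6% of the 43 (8 genes) and 9.92% of the 2600, and TAACAAA before 16.3% and 16.7%. The shares were 9.30% and 9.88% for ACGTGNC, 6.98% and 8.35% for the G-box, and 37.2% and 33.8% for AGATTT. The higher share of TGTCGG among the 24 was therefore not seen in the wider list. The 3 genes of the 24 with TGTCGG were *IAA1*, *NPH4* and *ERF094*, and the gene with the GCC box was *ERF094* too. These are matches of letters, and the lists do not say where in the 2 kb windows a peak lay.

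The 24 genes were spread over the lists as follows. Against C2, memory plant 1 listed 18 of them (5.86% of all annotated genes were in that list), memory plant 2 listed 13 (4.72%) and memory plant 3 listed 15 (4.42%). Against C3, memory plant 1 listed 10 (4.76%), memory plant 2 listed 6 (3.84%) and memory plant 3 listed 5 (3.55%). Since a gene had to be listed to be chosen, these counts are read against the other listed genes rather than against the annotation. The lists against C2 held 75.0%, 54.2% and 62.5% of the hormone genes and 61.8%, 49.8% and 46.7% of all 2600 listed genes, for memory plants 1, 2 and 3 in turn. The lists against C3 held 41.7%, 25.0% and 20.8% of the hormone genes and 50.2%, 40.5% and 37.4% of all listed genes. The hormone genes were thus a larger share of each of the 3 lists against C2 (1.12%, 1.00% and 1.24% of the list) than of any list against C3 (0.766%, 0.570% and 0.514%).

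**Figure D1:**
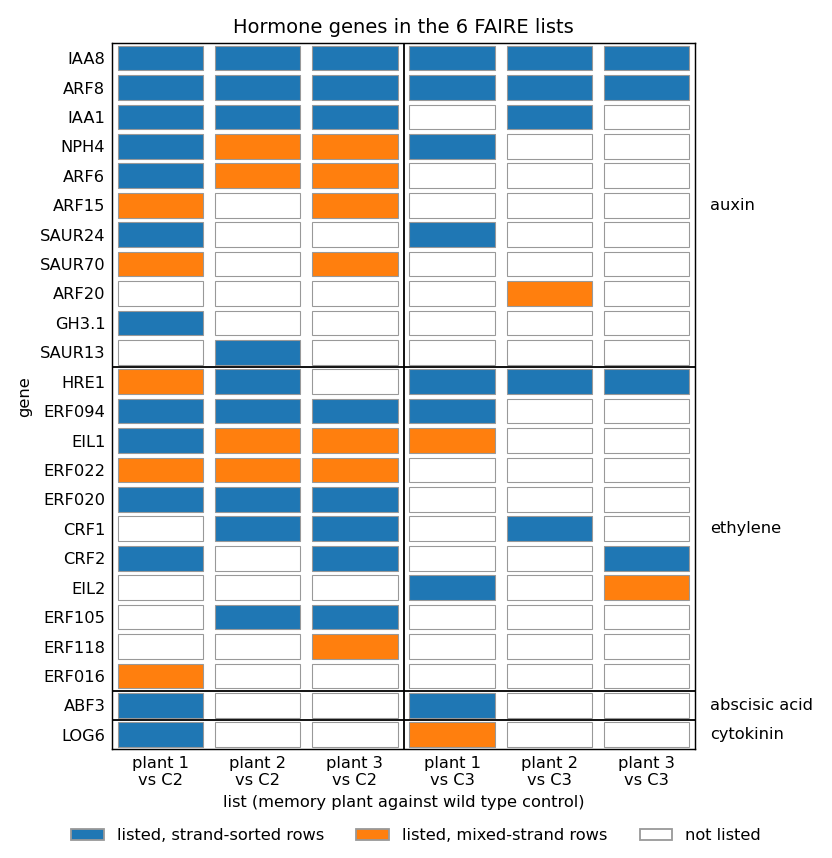
Presence of the 24 hormone genes (down the page, by the hormone in their description) in the 6 lists (across, memory plant against wild type control). Filled cells mark a listed gene, blue where it stood among the strand-sorted rows of the list and orange among the rows of mixed strand. *IAA8* and *ARF8* are filled in all 6 columns, and 10 genes are filled on the C2 side alone.

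Against C2, 22 of the 24 were in at least 1 list (91.7%, against 80.9% of all listed genes), where 7.66% of annotated genes were listed. Against C3, 14 were in at least 1 list (58.3%, against 68.8% of all listed genes), where 6.52% of annotated genes were listed. Memory plant 1 supplied 10 of these 14, and 1305 of the 1790 genes of any kind listed against C3. Without it 8 hormone genes were listed against C3. Both controls gave a list for 12 genes (50.0%, against 49.7%), 10 were in lists against C2 alone (41.7%, against 31.2%) and 2, *EIL2* and *ARF20*, in lists against C3 alone (8.33%, against 19.1%). All 3 lists against C2 held 9 hormone genes (37.5%, against 30.7% of all listed genes), where 2.91% of annotated genes were in all 3. All 3 lists against C3 held 3, *IAA8*, *ARF8* and *HRE1* (12.5%, against 22.2% of all listed genes), where the share of annotated genes was 2.11%. The difference between the controls cannot be told apart from a difference between 2 wild type libraries.

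By number of lists, 5 genes were in 1 list, 7 in 2, 5 in 3, 4 in 4, 1 in 5 and 2 in all 6 lists, with a median of 2.5 lists against 2.0 for all listed genes. A single list held 20.8% of the hormone genes and 31.3% of all listed genes. All 6 lists held 8.33% of the hormone genes and 16.4% of all listed genes, or 1.55% of annotated genes. Lists of all 3 memory plants held 10 of the 24 (41.7%, against 37.2% of all listed genes), and lists of a single plant held 8 (33.3%, against 41.3%).

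**Figure D2:**
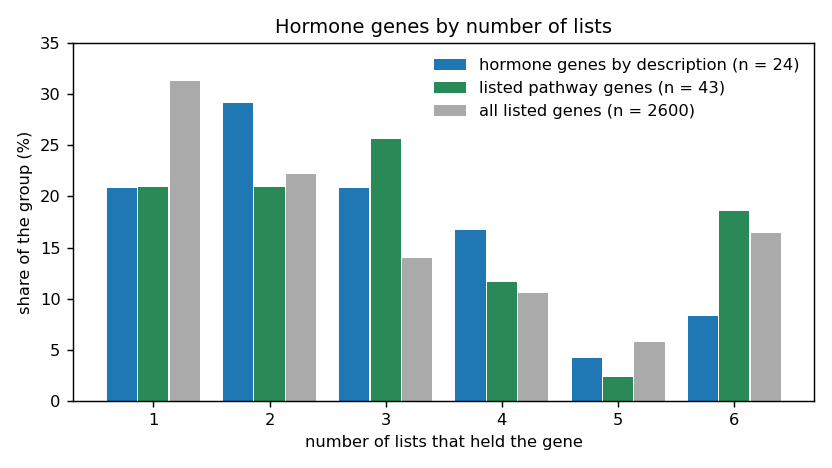
Share of genes (vertical axis, percent of the group) by the number of lists that held them (horizontal axis), for the 24 hormone genes by description, the 43 listed genes of a hormone pathway list, and all 2600 listed genes. The hormone genes had 29.2% in 2 lists and 8.33% in all 6, against 22.2% and 16.4% of all listed genes.

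The auxin genes held repressors, response factors, a GH3 gene and SAUR genes. *IAA8* (AT2G22670, TAIR10.1 chr2:9636346-9638761, plus strand, 6 exons), an Aux/IAA repressor, was in the lists of all 3 memory plants against both controls. *IAA1* (AT4G14560, chr4:8360996-8362033, plus strand, 2 exons), an auxin-induced repressor of the same family, was in all 3 lists against C2 and in that of memory plant 2 against C3. The other 27 annotated Aux/IAA genes of the pathway list had no listing. *IAA8* stood alone, with 5062 bp to the gene upstream and 6508 bp to the gene downstream. *IAA1* had 10732 bp upstream and 83 bp downstream to its unlisted neighbours.

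*ARF8* (AT5G37020, chr5:14629453-14634454, plus strand, 14 exons) was in all 6 lists. It and *ARF6* are closely related activating response factors that act together in flower maturation and are targets of a common microRNA. *ARF6* (AT1G30330, chr1:10685822-10690988, minus strand, 14 exons) was in the lists of all 3 memory plants against C2 and in 0 of the 3 against C3. The same 3 lists against C2 held *NPH4* (also called *ARF7*, AT5G20730, chr5:7016445-7022179, minus strand, 13 exons), an activating factor of phototropism and lateral root formation, which was also in the list of memory plant 1 against C3. All 3 of these genes were therefore listed for every memory plant against C2, and against C3 they were listed for 3, 0 and 1 memory plants.

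*ARF15* (AT1G35520, chr1:13082819-13085830, minus strand) was in the lists of memory plants 1 and 3 against C2, and *ARF20* (AT1G35240, chr1:12927303-12930523, minus strand) in that of memory plant 2 against C3 alone. Both belong to a group of near-identical ARF genes on chromosome 1. Of their 31-base words, counted across the gene and its 2 kb flanks, 36.0% in *ARF15* and 29.5% in *ARF20* occur more than once in the genome. Where the further copies lie was not examined, and how reads from repeated sequence were placed is not given. These 3 listings are therefore uncertain. No other hormone gene of the 24 exceeded 9.27%. In all, 5 of the 23 ARF genes were listed (21.7%, against 9.47% of all annotated genes), or 3 without *ARF15* and *ARF20*.

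*GH3.1* (AT2G14960, chr2:6451319-6453797, minus strand, 3 exons), of the family whose enzymes join auxin to amino acids, was in 1 list, that of memory plant 1 against C2. Its nearest neighbours lay 27019 bp upstream and 12174 bp downstream. Of the SAUR genes, short early transcripts of auxin-driven growth, 3 met the description rule. *SAUR24* (AT5G18080, chr5:5983683-5984308, plus strand) was in both lists of memory plant 1 and in 0 of the 4 of the other plants. *SAUR70* (AT5G20810, chr5:7043758-7045830, plus strand) was in the lists of memory plants 1 and 3 against C2. *SAUR13* (AT4G38825, chr4:18121526-18122010, plus strand) was in that of memory plant 2 against C2, and overlaps the unlisted gene AT4G38820. These 3 SAUR genes were thus in 1 or 2 lists each, and none of the 3 was listed in all 3 plants.

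Among the ethylene genes, signalling factors of the EIN3-like family came first in the pathway. *EIL1* (AT2G27050, chr2:11545656-11548293, plus strand, 2 exons), which with *EIN3* carries most of the ethylene response, was in all 3 lists against C2 and in that of memory plant 1 against C3. *EIL2* (AT5G21120, chr5:7181926-7184365, plus strand, 2 exons), a less studied relative, was in 0 lists against C2 and in those of memory plants 1 and 3 against C3. The list of memory plant 1 against C3 thus held both genes. The descriptions of the remaining 9 ethylene genes name them as ethylene-responsive transcription factors. Their place under ethylene rests on that wording alone. The pathway list described further on holds *CRF1* and *CRF2* under cytokinin and does not hold the others.

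*HRE1* (AT1G72360, chr1:27241696-27242968), a factor of the response to low oxygen, was in 5 lists, being absent from that of memory plant 3 against C2. *ERF094* (also known as *ORA59*, AT1G06160, chr1:1882907-1883992), which joins ethylene and jasmonate signals in defence against fungi, was in all 3 lists against C2 and in that of memory plant 1 against C3, as *EIL1* and *NPH4* were. *ERF022* (AT1G33760) and *ERF020* (AT1G71520) were in the 3 lists against C2 alone, as *ARF6* was. *ERF105* (AT5G51190), a gene of the cold response, was in the lists of memory plants 2 and 3 against C2. *ERF118* (AT1G68550) was in that of memory plant 3 and *ERF016* (AT5G21960) in that of memory plant 1, both against C2. Except for *HRE1* and *ERF094*, these ERF genes were not listed against C3.

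*CRF1* and *CRF2* are described as ethylene-responsive factors but are known as cytokinin response factors, members of the same protein family that cytokinin induces or moves to the nucleus. *CRF1* (AT4G11140, chr4:6794630-6796398, minus strand) was in the lists of memory plants 2 and 3 against C2 and of memory plant 2 against C3. *CRF2* (AT4G23750, chr4:12376122-12378032, plus strand) was in those of memory plants 1 and 3 against C2 and of memory plant 3 against C3. Each was absent from both lists of 1 memory plant, plant 1 for *CRF1* and plant 2 for *CRF2*.

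*ABF3* (AT4G34000, chr4:16295334-16298285, plus strand, 5 exons), a bZIP factor that binds the abscisic acid response element under drought, was in both lists of memory plant 1 and in 0 of the 4 lists of the other plants. *LOG6* (AT5G03270, chr5:781725-784368, plus strand, 7 exons), of the family that releases active cytokinin from its nucleotide, had the same 2 lists. With *SAUR24*, 3 of the 24 genes (12.5%), against 260 of all 2600 listed genes, were listed for a single plant against both controls, and that plant was memory plant 1 each time. Its 2 lists were the longest for each control, with 1608 genes against C2 and 1305 against C3.

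The rule reads descriptions of listed genes, so it has no denominator of its own. A list of 446 hormone pathway symbols was therefore matched to RefSeq, which gave 440 genes, and 43 of them were listed (9.77%, against 9.47% of all annotated genes). All 6 lists held 8 of the 440 (1.82%, against 1.55%). A search of RefSeq product names for the same hormone words gave 273 genes, of which 32 were listed (11.7%) and 5 were in all 6 lists (1.83%). Of the 24 genes, 17 were in the pathway list and 14 had a hormone word in the RefSeq product. As a group, hormone genes were listed at a rate near that of all genes.

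By hormone, the listed share of the pathway list was 10.5% for auxin (19 of 181 genes), 14.0% for ethylene (6 of 43), 9.52% for cytokinin (6 of 63), 16.1% for jasmonate (5 of 31), 14.8% for brassinosteroid (4 of 27) and 9.09% for strigolactone (1 of 11). It was 2.56% for gibberellin (1 of 39) and 2.22% for abscisic acid (1 of 45). These counts are small, the shares were not tested, and their order depends on the list. By RefSeq product names, the listed share was 28.6% for abscisic acid (2 of 7 genes), 21.4% for cytokinin (3 of 14), 21.4% for jasmonate (3 of 14), 12.2% for ethylene (5 of 41), 11.4% for auxin (19 of 166), and 0% for gibberellin (0 of 26) and brassinosteroid (0 of 6). The same share over all annotated genes was 9.47%. Within auxin, 5 of 23 ARF genes (21.7%), 2 of 29 Aux/IAA genes (6.90%) and 7 of 78 SAUR genes (8.97%) were listed. So were 2 of 14 auxin synthesis genes (14.3%) and 0 of 23 auxin transport genes. Within ethylene, 4 of 9 signalling genes (44.4%), 0 of 14 synthesis genes and 0 of 5 receptors were listed. Of those 4, *EIL3* was in 1 list and *EIL2* in 2. Differences between groups this small were not tested.

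**Figure D3:**
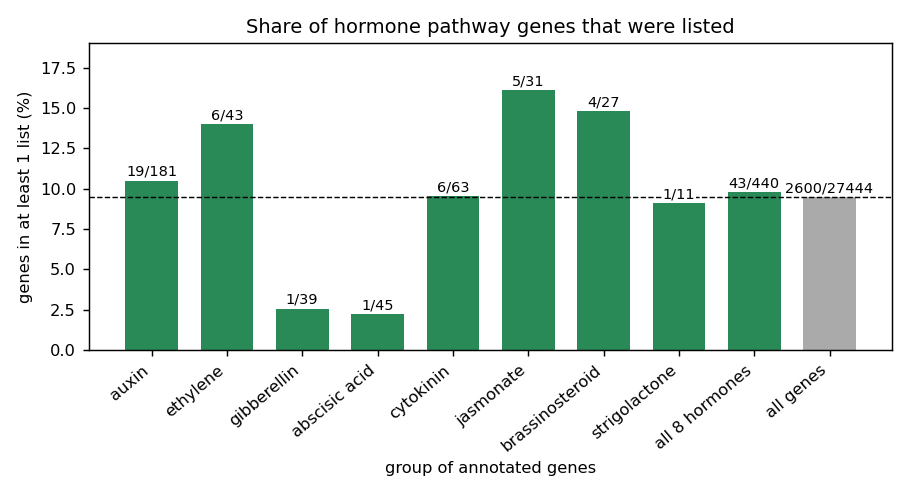
Percent of annotated hormone pathway genes in at least 1 list (vertical axis), by hormone, with all 8 hormones and all annotated genes at the right, and listed over annotated genes above each bar. The dashed line is the 9.47% of all annotated genes, and gibberellin (2.56%) and abscisic acid (2.22%) have the lowest bars in this list, while by RefSeq product names abscisic acid had 28.6% (2 of 7 genes).

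Of 38 hormone receptors and co-receptors, 4 were listed (10.5%, near the 9.47% of all annotated genes). *AFB2* (AT3G26810), an auxin receptor, and *BAK1* (AT4G33430), a co-receptor kinase of brassinosteroid and immune signalling, were in all 6 lists. *AHK4* (AT2G01830), a cytokinin receptor kinase, was in all 3 lists against C2 and in that of memory plant 1 against C3, and *AFB5* (AT5G49980), an auxin receptor, was in that of memory plant 2 against C3 alone. The auxin receptor *TIR1*, the 5 ethylene receptors, the 3 gibberellin receptors, the 14 abscisic acid receptors, the jasmonate receptor *COI1*, the brassinosteroid receptor *BRI1* and the strigolactone receptor *D14* were in 0 lists.

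The other listed pathway genes outside the description rule were picked out after their lists were seen. In all 6 lists were *YUC9* of auxin synthesis, *ERF5*, the jasmonate repressor *JAZ12* and *BEH1*, a relative of the brassinosteroid factor *BZR1*, beside *AFB2* and *BAK1*. The jasmonate synthesis gene *AOS* was in 5 lists, and the brassinosteroid synthesis gene *DET2* in all 3 lists against C2 and in that of memory plant 3 against C3. *DET2* has 0 bp between it and AT2G38040, which was in all 6 lists, and *ERF5* lies 2340 bp from AT5G47240, also in all 6. Peaks in those lists could belong to either gene. Of the 31-base words of *BEH1* and its 2 kb flanks, 14.9% occur more than once in the genome, so its listings are less certain. In the 3 lists against C2 alone were *SAUR14*, the ethylene receptor regulator *RTE1*, the cytokinin response regulator *ARR9*, *JAZ5*, the jasmonate synthesis gene *OPR3*, *BEH2* and the strigolactone repressor *SMXL7*. With *ARF6*, 8 of the 43 listed pathway genes had exactly those 3 lists (18.6%, against 6.04% of all listed genes and 3, or 12.5%, of the 24). Exactly the 3 lists against C3 were found for 0 of the 43 and 1.85% of all listed genes.

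**Figure D4:**
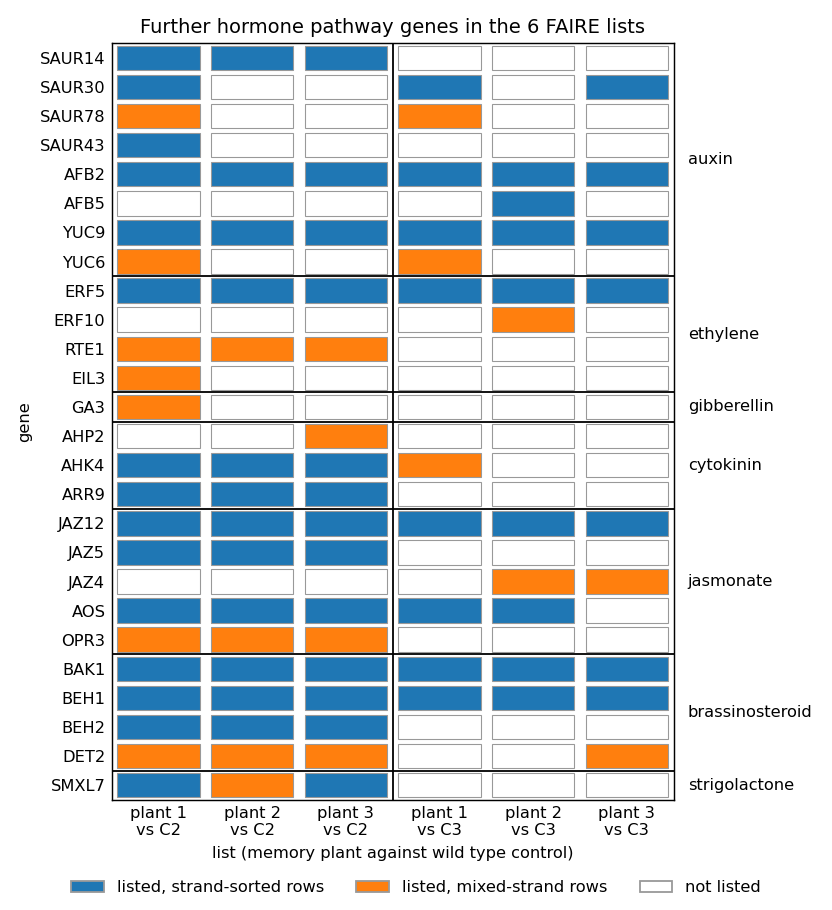
Presence in the 6 lists (across) of the 26 listed hormone pathway genes that the description rule did not take (down the page, by hormone), with colours for strand-sorted and mixed-strand rows. *AFB2*, *YUC9*, *ERF5*, *JAZ12*, *BAK1* and *BEH1* are filled in all 6 columns, and 7 genes in the 3 columns of C2 alone.

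A listing does not point to 1 gene where genes stand close. Of the 24, 3 had another listed gene within 2 kb (12.5%, against 24.2% of all listed genes). *NPH4* overlaps *CPN20* (AT5G20720), a chloroplast chaperonin gene on the other strand, and both were listed for memory plants 2 and 3 against C2. *ERF020* and AT1G71500, 761 bp apart, were both in the list of memory plant 2 against C2, as were *ERF105*, AT5G51180 (overlapping it) and AT5G51195 (1668 bp away). In these lists a peak could belong to either gene. The windows of genes up to 4 kb apart also meet, and within that distance 8 of the 24 shared a list with another listed gene (33.3%, against 24.8% of all listed genes). The other 5, picked out after their values were seen, were *SAUR70* (2838 bp from AT5G20790, with 2 lists in common), *SAUR13* (2967 bp from *SAUR14*, 1 list), *EIL1* (2411 bp from AT2G27060, 1 list), *CRF1* (3488 bp from *VHA-E1*, AT4G11150, 3 lists) and *CRF2* (3797 bp from AT4G23760, 2 lists). All 3 listings of *CRF1* and both of *SAUR70* were thus in lists that also held the gene beside it. The remaining 16 had no listed gene within 4 kb. A peak was not given to every gene near it, however: 24.3% to 29.7% of the genes of a list, and 1 to 3 of the hormone genes in it, had the whole of their window inside the windows of unlisted genes. The median space to both neighbours together was 5517 bp for the 24, 2710 bp for all listed genes, 4156 bp for unlisted pathway genes and 1811 bp for unlisted genes, and the median gene length was 2160 bp, against 2252.5 bp for all listed genes.

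Each list runs through every chromosome in 3 blocks of rows, first genes on the plus strand, then genes on the minus strand, then genes of either strand. The meaning of the blocks is not given in the sources used here. Of the 67 listings of the 24 genes, 20 were in the mixed block (29.9%, against 37.2% of all 7448 listings). *IAA8* and *ARF8* stood in the plus-strand block in all 6 lists. *ARF6* and *NPH4* stood in the minus-strand block for memory plant 1 and in the mixed block for memory plants 2 and 3 against C2. Of the 19 genes in at least 2 lists, 10 were always in a strand block, 3 always in the mixed block and 6 in both kinds.

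By chromosome, 8 of the 24 genes lay on chromosome 1 (33.3%, against 24.3% of all listed genes) and 3 on chromosome 2 (12.5%, against 17.9%). Chromosome 3 held 0 (against 18.8%), chromosome 4 held 5 (20.8%, against 17.1%) and chromosome 5 held 8 (33.3%, against 21.8%). Listed hormone genes of the pathway list on chromosome 3 numbered 4. On the upper arm of chromosome 5, *NPH4* and *SAUR70* were 21578 bp apart, *JAZ12* lay 44873 bp beyond *SAUR70*, *EIL2* 89386 bp beyond *JAZ12* and *ERF016* 73671 bp beyond *EIL2*. *NPH4* and *SAUR70* were in 2 lists together, *SAUR70* and *JAZ12* in 2, *JAZ12* and *EIL2* in 2, and *EIL2* and *ERF016* in 0.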

How the data were processed

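FAIRE-seq libraries of 3 memory line plants and 2 wild type plants were compared through 6 deposited gene lists, 1 per memory plant and control. Per the labels, each list belongs to 1 memory plant. The submitters' processing notes name Trim Galore 0.4.1, cutadapt 1.9.1, Bowtie2 and the build TAIR10. The peak caller and its threshold are not given in the sources used here. The deposited values are the presence or absence of a gene in a list, and with no read count or peak value no interval or test could be computed. Each locus identifier was looked up in RefSeq TAIR10.1, and 0 were unmatched. Coordinates are those of genes, not peaks.

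The 24 genes, the pathway list (5 of 446 symbols unmatched) and the motifs were chosen with earlier results of these data known, and the last 2 were compiled from general knowledge. Every gene of the 24 was to be named with its lists, in full for *ARF6*, *ARF8*, *GH3.1*, genes in all 6 lists and genes of the pathway list. Space was measured to the adjacent protein-coding genes, and listed genes nearby were sought among all listed genes. Repeats were 31-base words found more than once. Promoter sequences are from RefSeq TAIR10.1, and motifs were searched on both strands. Row blocks, clusters and motif search were tested on simulated data. Python 3.11.15, numpy 2.4.6 and matplotlib 3.10.9 were used. Other definitions of a hormone gene, each control alone and each memory plant left out were tried as alternatives.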

Additional observations from a re-analysis of the deposited data

How the results depend on the processing

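Of 57 alternatives for 6 results, 46 stayed within a factor of 1.5 and 11 moved further. All are counts or percentages without a sign, so no single value could change direction. The count of hormone genes against C2 stayed above that against C3 in every alternative run on both. Over all listed genes the count against C2 was higher too (2103 against 1790). Against C3 alone, 14 hormone genes were listed, in place of 24, the median share of a list was 0.570% in place of 0.885%, and 7.33% of RefSeq hormone genes were listed in place of 11.7% (6.52% in place of 9.47% of all genes). Against C2 alone, 9 were in all lists, in place of 2. By RefSeq product names, 5 were in all 6 lists. Taking genes of the description rule, the product names or the pathway list together gave 56 listed genes. This alternative was chosen after seeing the data and had a median share of 2.15%. Of the 56, 9 were in all 6 lists (16.1%, against 16.4% of all listed genes). Lists against C2 held 48 (85.7%, against 80.9%) and lists against C3 held 33 (58.9%, against 68.8%). Leaving out each memory plant in turn gave 19 to 23 listed genes, 2 to 3 in all lists, 17 to 21 against C2, 8 to 13 against C3 (8 without memory plant 1, in place of 14), a median share of 0.786% to 0.943% and 8.79% to 11.7% of RefSeq hormone genes (7.39% to 8.73% of all genes, lowest without memory plant 1 in both). Counting neighbouring genes once or searching whole descriptions changed none of the values they were run on. No paired analysis was possible because the lists set single libraries against each other and give 0 or 1 for a gene. Depth is unknown, so absence from a list cannot be told apart from a peak too weak to be called.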

Other observations

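The RefSeq product names added 6 listed hormone genes that neither the description rule nor the pathway list had taken, picked out after their lists were seen. *DFL2* (AT4G03400), a member of the same GH3 family as *GH3.1*, was in all 6 lists, and *GH3.1* was in 1. AT4G12980, named as an auxin-responsive family protein, was in the lists of memory plants 2 and 3 against C3. *DRMH1* (AT2G33830), of the dormancy and auxin associated family, and *HVA22I* (AT5G42560), named as abscisic acid-responsive, were in that of memory plant 1 against C3. *GATA22* (AT4G26150), a cytokinin-responsive factor of greening, and AT5G47530, named as auxin-responsive, were in that of memory plant 2 against C2. All of their listings stood in the mixed-strand block.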
